A study of Mus musculus with 6 samples.

Results

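The genes described here are 7 factors known from the specification and early life of primordial germ cells in the mouse: Tfap2c, Prdm1, Prdm14, Alpl, Nanos3, Nr6a1 and Tcl1. They were read from every probe set that the platform annotation pairs with exactly 1 symbol equal to one of these names, which gave 12 probe sets on an array of 45101. Of the 7 genes, 6 (of 18194 genes so named on the array) had at least 1 such probe set: Tfap2c had 3, Nr6a1 had 5, and Prdm1, Prdm14, Alpl and Tcl1 had 1 each. Nanos3 had 0 and was not analysed here.

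The samples were testes of mouse embryos at E13.5, and the array compared 3 controls with 3 Dmrt1 nulls, each given as a biological replicate. Both groups were outcrossed to 129S6/SvEvTac, and the design text gives a high incidence of teratoma in the animals without Dmrt1. The controls are called wild type in their titles but Dmrt1 (+/-) in their descriptions, genotype entries and the design text, so they may carry 1 null allele. The nulls are Dmrt1 (-/-) by title and description, whereas their genotype entry reads flox/flox and names no Cre driver. Whole gonads were taken, so each value is a mixture of germ cells and somatic cells, and fewer cells of a type cannot be told apart from less RNA per cell. The labels do not say how many embryos went into a sample.

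Primordial germ cells are set aside from the epiblast under BMP and WNT signals, which switch on the transcriptional repressor PRDM1, its relative PRDM14 and the AP-2 family factor TFAP2C. These 3 factors silence somatic genes and bring back a pluripotency programme, and the new germ cells can be stained for the alkaline phosphatase encoded by Alpl. In the fetal testis the germ cells stop dividing and turn this early programme down as they become prospermatogonia.

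No member passed the test for a difference between the groups. Of the 12 probe sets, 8 passed the filter on dim values (a mean log2 intensity of at least 4 over the 6 arrays), at least 1 for each of the 6 genes, and 0 of the 8 were called by limma at a Benjamini-Hochberg adjusted p of 0.05 taken over all 22082 probe sets tested. Over all probe sets 0.0272% were called. At an unadjusted limma p under 0.05 there was 1 member probe set, of Tfap2c, beside 6.04% of all probe sets. The control and null groups overlapped at each of the 8, whereas they did not overlap at 12.8% of all probe sets tested. Differences, given throughout as null minus control on the log2 scale, were above 0 at 5 of the 8 and below 0 at 3, with a median of 0.14 beside 0.01 over all. The 5 include all 3 probe sets of Tfap2c, so this count and median lean on 1 gene. By gene, Tfap2c, Prdm14 and Tcl1 lay above 0, and Prdm1, Alpl and Nr6a1 lay below. Over all genes tested, 43.7% were below 0. Intensities of single samples are given below in the order of replicates 1, 2 and 3. Dmrt1 itself was 26.4-fold lower in the nulls (limma adjusted p = 0.00388), which follows the labels.

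**Figure D1:**
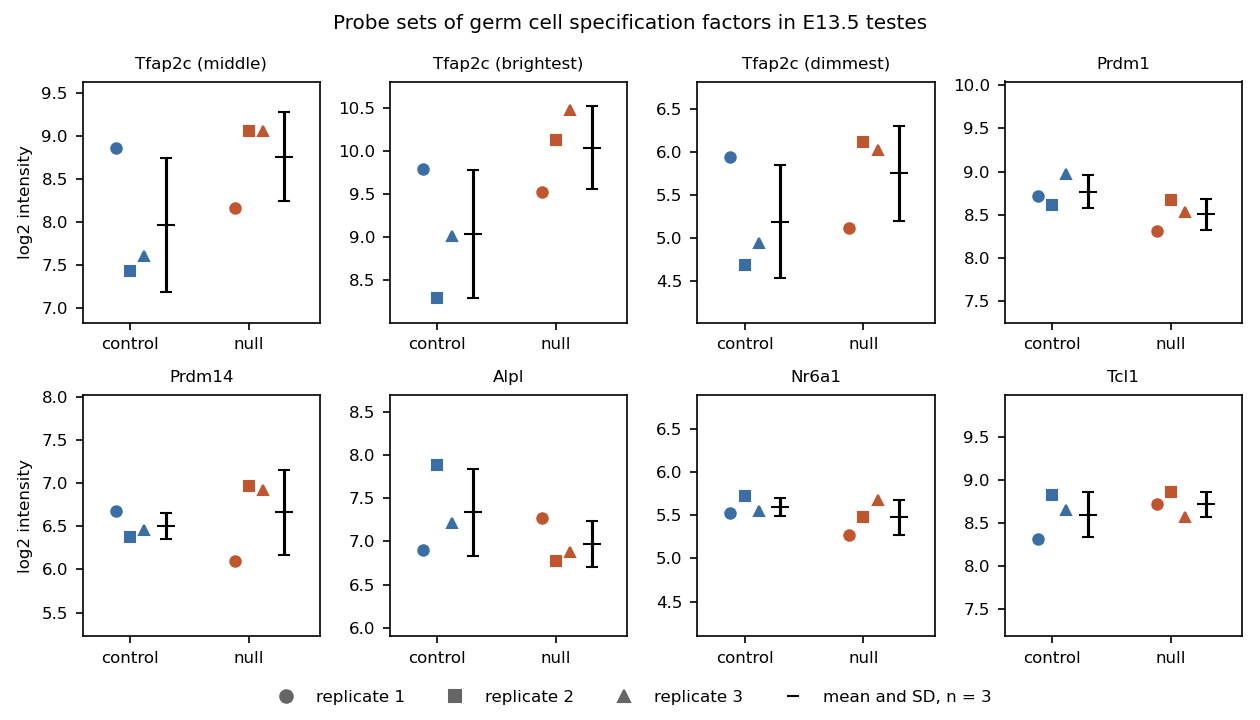
Log2 intensity of the 8 tested probe sets in control and null testes, with 1 point per array, the replicate given by the marker shape, and the mean with its SD (n = 3 per group) as a bar; each panel spans 2.8 log2 units but starts at its own level. The groups overlap in every panel, and the controls scatter most in the 3 Tfap2c panels, with SDs of 0.66 to 0.78 log2 units.

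Tfap2c, which encodes the AP-2 gamma factor that acts downstream of PRDM1 in germ cells, had the largest difference of the members. Its brightest probe set read 884, 315 and 519 in the controls and 734, 1120 and 1420 in the nulls. Null replicates 2 and 3 were the highest arrays, but null replicate 1 lay below control replicate 1. The difference was 1.00 ± 0.37 (SE, n = 3 per group), a 2.01-fold higher mean in the nulls with a 95% confidence interval of 1.10 to 3.65. The unadjusted limma p was 0.0280 and the limma adjusted p was 0.773, so it was not called. Only 0.326% of tested probe sets had a larger difference in either direction. The SD of this probe set over the 6 arrays exceeded that of 98.8% of them, but that SD includes the difference between the groups. Within the groups its SD was 0.74 log2 units in the controls and 0.48 in the nulls. The name of this probe set marks it as one whose probes can match more than 1 transcript.

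The other Tfap2c probe sets gave the same order of groups and the same overlap. The middle one by brightness read 464, 172 and 195 in the controls and 286, 531 and 533 in the nulls. Its difference was 0.79 ± 0.40 (SE, n = 3 per group; limma adjusted p = 0.773). The dimmest read 61.2, 25.8 and 30.8 in the controls and 34.7, 69.1 and 65.1 in the nulls. Its difference was 0.56 ± 0.38 (SE, n = 3 per group; limma adjusted p = 0.792). In all 3 probe sets control replicate 2 was the lowest array, and control replicate 1 stood with the nulls. After each probe set was centred on its own mean, the 3 lay within 0.10 to 0.46 log2 units of each other on every array, so they shared the scatter between arrays. They read 1 gene in the same 6 RNA samples and are not replicates of the comparison.

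The Tfap2c difference depended on single arrays. At the brightest probe set it fell to 0.64 when control replicate 2 was dropped and grew to 1.38 when control replicate 1 was, with limma adjusted p of 0.593 or more in each of the 6 fits that left out 1 array. The same omissions gave 0.52 and 1.24 at the middle probe set, and 0.31 and 0.93 at the dimmest. Control replicate 3 and null replicate 2 share a leading number in their descriptions, and the labels do not say what it stands for. Between those arrays Tfap2c was 2.16-fold higher in the null at the brightest probe set, 2.72-fold at the middle one and 2.24-fold at the dimmest, each a single pair with no test.

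Prdm1 encodes BLIMP1, the repressor that starts the germ cell programme in the epiblast, and Prdm14 encodes the PR domain protein that restores pluripotency genes beside it. Prdm1 read 420, 392 and 504 in the controls and 318, 407 and 371 in the nulls. Its ranges overlapped only through null replicate 2, which lay between the lower controls. The difference was -0.26 ± 0.15 (SE, n = 3 per group), 1.20-fold lower in the nulls with a 95% confidence interval from 1.52-fold lower to 1.06-fold higher (limma adjusted p = 0.774). Fits that each left out 1 array gave -0.34 to -0.16, the value closest to 0 being that without control replicate 3.

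Prdm14 had intensities of 102, 83.0 and 87.9 in the controls and 68.5, 125 and 121 in the nulls. The null samples held both the lowest array, replicate 1, and the 2 highest. The difference was 0.16 ± 0.24 (SE, n = 3 per group; limma adjusted p = 0.904), with a 95% confidence interval of -0.41 to 0.72. Without null replicate 1 it was 0.44, and without null replicate 2 it was 0.01. For Prdm14 as for Tfap2c, null replicates 2 and 3 were the highest arrays and control replicate 1 came next.

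Alpl encodes the tissue-nonspecific alkaline phosphatase, the enzyme whose staining has long been used to find primordial germ cells, and which other fetal tissues also make. Its intensities were 120, 237 and 149 in the controls and 155, 109 and 118 in the nulls. Control replicate 2 was the highest array, the opposite of its place for Tfap2c. The difference was -0.36 ± 0.26 (SE, n = 3 per group; limma adjusted p = 0.802), and it was -0.09 when control replicate 2 was dropped and -0.58 when control replicate 1 was. The pair of arrays with the same leading number gave -0.45.

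The order of the arrays for Alpl ran nearly backwards to that for the brightest Tfap2c probe set. The arrays highest for Alpl, control replicate 2, null replicate 1 and control replicate 3, were the 3 lowest for Tfap2c. This order was noticed after the values were seen and was not tested.

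Of the 2 starts listed for Alpl, the sequence around one is shown because AP-2 factors, of which TFAP2C is one, bind the motif GCCNNNGGC. The window runs from 250 bases before the start to 50 after it, in RefSeq's GRCm38.p6 table, on the minus strand at chr4:137796335-137796634. Capitals mark the 3 matches, and the motif reads the same on both strands. The window of the other Alpl start, chr4:137766426-137766725, holds 0 matches.
Alpl: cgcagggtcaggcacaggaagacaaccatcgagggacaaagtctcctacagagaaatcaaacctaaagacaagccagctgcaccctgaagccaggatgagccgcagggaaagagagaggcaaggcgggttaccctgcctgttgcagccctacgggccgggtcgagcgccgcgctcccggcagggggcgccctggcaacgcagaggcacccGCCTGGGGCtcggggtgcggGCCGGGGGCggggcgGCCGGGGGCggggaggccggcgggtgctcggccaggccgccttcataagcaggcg

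The table held 7 windows for 5 of the genes, Alpl, Nanos3, Nr6a1, Prdm1 and Tcl1, and GCCNNNGGC was found in 2 of the 7, the Alpl window shown and that of Nanos3. It is in 16.6% of all 32851 windows of the same length. A match is only a run of letters, not a site shown to be bound. The core ACANTGT, which DMRT1 binds and which also reads the same on both strands, was found in 1 of the 7 windows and in 7.54% of all windows. That match lies before one of the starts listed for Nr6a1, in the stretch chr2:38784576-38784642 of the minus strand, where capitals mark it.
Nr6a1: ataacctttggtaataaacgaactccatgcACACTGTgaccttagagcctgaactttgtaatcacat

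Nr6a1 encodes germ cell nuclear factor, an orphan nuclear receptor that silences Pou5f1 as embryonic cells differentiate. Its tested probe set read 46.1, 52.7 and 46.7 in the controls and 38.6, 44.8 and 51.0 in the nulls. Null replicates 1 and 2 lay below every control, and null replicate 3 lay within the control range. The difference was -0.12 ± 0.16 (SE, n = 3 per group; limma adjusted p = 0.890), with a 95% confidence interval of -0.50 to 0.26. It was -0.018 without null replicate 1 and -0.22 without null replicate 3. The other 4 Nr6a1 probe sets did not reach the filter, with intensities from 2.10 to 9.67, below the array medians of 14.6 to 14.8. In a fit with no filter they had differences from -0.20 to 0.01.

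Tcl1 encodes a coactivator of the kinase AKT that is made in pluripotent and early germ cells. Its intensities were 317, 452 and 403 in the controls and 422, 463 and 380 in the nulls. Only control replicate 1 stood below the other arrays. The difference was 0.12 ± 0.16 (SE, n = 3 per group; limma adjusted p = 0.888), with a 95% confidence interval of -0.25 to 0.49. Without control replicate 1 it was -0.02, opposite in sign.

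**Figure D2:**
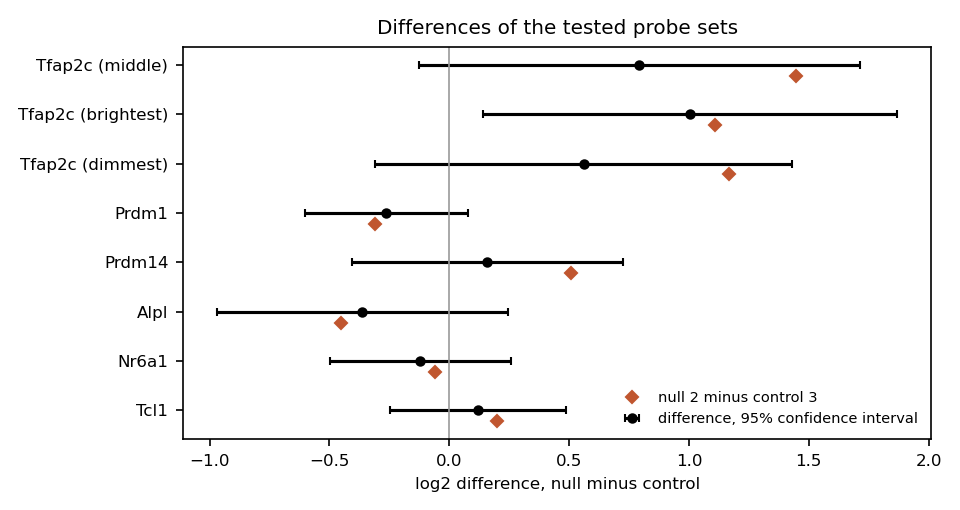
Log2 difference, null minus control, of the 8 tested probe sets with 95% confidence intervals from limma (black, n = 3 per group), and the single pair of null replicate 2 minus control replicate 3 (diamonds). The intervals span 0 at all but the brightest Tfap2c probe set, whose interval of 0.14 to 1.87 is not adjusted for the number of probe sets tested.

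Markers of other cell types also varied across the arrays, those of fetal Leydig cells in the direction opposite to Tfap2c. Fetal Leydig cell markers, most of them steroid-making enzymes and carriers of the interstitium, were measured at 5 of 8 genes. Their median level relative to the mean of the 6 arrays was -0.67, 0.74 and 0.69 in the controls and 1.04, -0.80 and -1.32 in the nulls. The 3 arrays with the highest Leydig level were the 3 with the lowest Tfap2c at each of its probe sets. None of the 5 markers was called by limma, and all 5 had differences below 0, with a median of -0.62. Of the other 3, Cyp11b1 lay below the filter and Insl3 and Lhcgr had no probe set of their own. Among the arrays of high Leydig level, the brightest Tfap2c probe set was at 315 and 519 in the controls and 734 in the null. Among those of low Leydig level it was at 884 in the control and 1120 and 1420 in the nulls. Each of these sets has a single array of one group, so they allow no comparison of the groups. When the Leydig level was added to the fit, an alternative chosen after the data were seen, the Tfap2c differences at the brightest, middle and dimmest probe sets were 0.69 ± 0.22, 0.44 ± 0.21 and 0.23 ± 0.20 (SE, n = 3 per group), with limma adjusted p of 0.336, 0.416 and 0.640. In that fit 12.7% of all probe sets had an unadjusted limma p under 0.05. The level came from the same 6 arrays and its markers leaned lower in the nulls, so the fit cannot separate it from the group. It already ran opposite to Tfap2c on these arrays, so the smaller SE is no support for a difference. Why Tfap2c and the Leydig level ran in opposite directions was not tested.

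Endothelial markers moved between arrays too, all 8 of 8 measured and none called. Their median level was 0.32, -0.92 and 0.34 in the controls and -0.51, 0.25 and 0.43 in the nulls, lowest in control replicate 2 and null replicate 1. Without those arrays, a choice made after the data were seen, the brightest Tfap2c probe set had a difference of 0.90 ± 0.24 (SE, 2 arrays per group; limma adjusted p = 0.829). The arrays left out were also the lowest of their groups at this probe set, at 315 and 734. Leaving them out narrows the spread, so the smaller SE is no support for a difference. Erythroid markers, 5 of 8 measured and none called, had median levels of 0.54, -0.72 and -0.07 in the controls and -0.15, 0.27 and 0.48 in the nulls. Their 3 lowest arrays were also the 3 lowest for Tfap2c, and all 5 genes had differences above 0. The erythroid differences ran from 0.09 to 0.99, with a median of 0.23. The embryonic globin Hbb-bh1, which had the largest of them (limma adjusted p = 0.778), read 1420, 238 and 479 in the controls and 730, 1170 and 1500 in the nulls. The part of the erythroid markers in the Tfap2c values was not tested.

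Germ cell markers were measured at 15 of 20 genes, and the bright signals of Ddx4 and Dazl (at least 1470 and 2760 on every array) mark the presence of germ cells in each sample. The median germ cell level was -0.30, 0.41 and 0.00 in the controls and 0.08, -0.06 and -0.22 in the nulls. The order of the arrays for Alpl followed this level at its upper end, with control replicate 2 first, null replicate 1 next and control replicate 3 after it. None of the 15 markers was called, and 10 had differences below 0, with a median of -0.19. The smallest p of this list were those of the piRNA factors Piwil2, with a difference of -0.60, and Tdrd5, with one of -1.42 (limma adjusted p = 0.773 each). The groups overlapped at both, and both were highest in control replicate 2, at 1740 for Piwil2 and 435 for Tdrd5. The other 5 of the 15 markers had differences above 0, the largest that of Rhox9 at 1.05 (limma adjusted p = 0.789). Rhox9 read 106, 25.9 and 33.5 in the controls and 34.9, 142 and 165 in the nulls, unlike the median of the list. Its 3 lowest arrays were the 3 lowest for Tfap2c. The same held for Rhox6 and Kit but for none of the other germ cell markers measured, so the median does not describe every marker of the list. The median level of the Sertoli cell markers lay between -0.13 and 0.06 on every array, with 6 genes above 0 and 7 below in their differences, and single genes varied more, as Sox9 did from 298 to 877. Of 13 measured, 1 was called, Cst9, which fell. The groups did not overlap at 4 of the 13, beside 13.1% of all genes tested. Aard had the next smallest p, with a difference of -0.43 (limma adjusted p = 0.474). Mesonephros markers, 6 of 8 measured, and macrophage markers, 8 of 8, had medians of -0.13 and -0.31 with every measured gene below 0 and none called. Over all genes tested 43.7% were below 0. The groups did not overlap at 3 of the 8 macrophage markers, beside the same 13.1% of all genes, and at 0 of the mesonephros ones. Mrc1 and Adgre1 had the smallest p of the macrophage markers, with differences of -0.54 and -0.40 (limma adjusted p = 0.773 each).

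**Figure D3:**
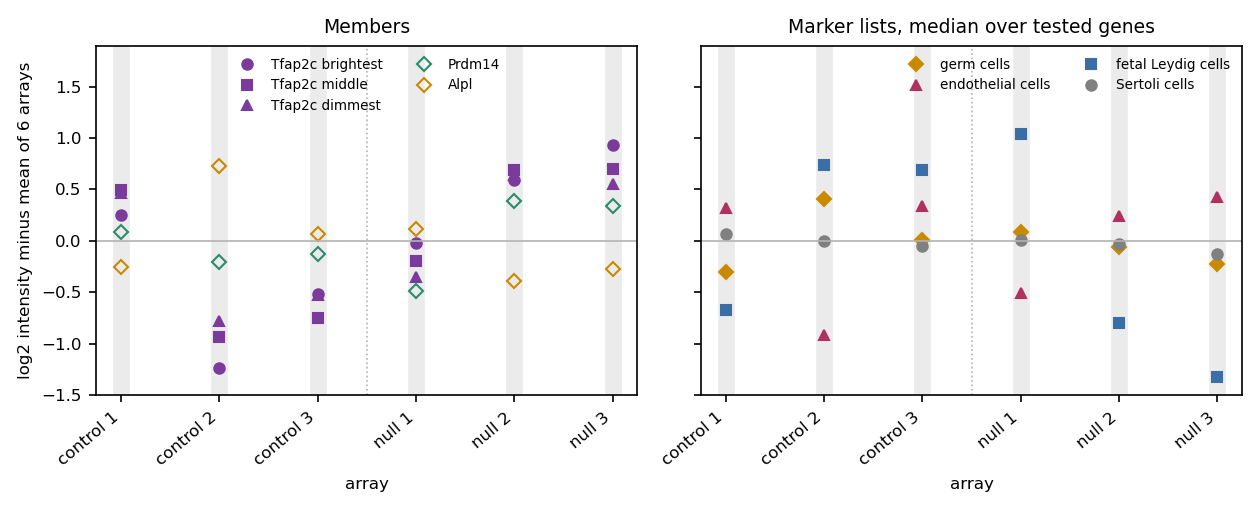
Left, log2 intensity of the 3 Tfap2c probe sets, Prdm14 and Alpl on each array, minus the mean of the 6 arrays; right, the median over tested markers of germ cells (15 genes), endothelial cells (8), fetal Leydig cells (5) and Sertoli cells (13) on the same scale. The 3 arrays with low Tfap2c, control replicates 2 and 3 and null replicate 1, have the highest Leydig levels, 0.69 to 1.04.

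The genes with array profiles most like the members were found among the 11874 genes tested, by the smallest root mean square difference of mean-centred log2 values over the 6 arrays. For Tfap2c these were Myo1a at 0.20, Foxh1 at 0.20 and Cyp2s1 at 0.22 log2 units. Foxh1, a transcription factor of Nodal signalling, had intensities of 68.7, 23.3 and 29.7 in the controls and 47.8, 79.6 and 128 in the nulls, a difference of 1.12 (limma adjusted p = 0.773). Alpl was matched by Taf4b at 0.06, Acot9 at 0.07 and Pgm2l1 at 0.08. Taf4b, a subunit of the transcription machinery that germ cells need, had intensities of 198, 350 and 227 in the controls and 249, 178 and 182 in the nulls, a difference of -0.32 (limma adjusted p = 0.808). These matches rest on 6 arrays and are a description, with no test.

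Signals that induce germ cells and their transducers were measured at 14 of 18 genes, and 0 were called. Differences were below 0 at 11 and above 0 at 3, with a median of -0.07 beside 0.03 over all genes, of which 43.7% were below 0. Bmpr2, a BMP receptor, had the smallest p, with a difference of -0.13 (limma adjusted p = 0.773). Acvr1, another receptor of the pathway, was at -0.19 (limma adjusted p = 0.813). The ligand Bmp4 had intensities of 125, 174 and 194 in the controls and 171, 149 and 138 in the nulls, whereas Bmp8b lay below the filter with intensities from 4.98 to 6.10. The ID genes, direct targets of BMP signalling, had differences of 0.17 for Id1, 0.07 for Id2 and 0.08 for Id3.

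The wider germ cell programme was measured at 28 of 30 genes, and 1 was called, Dmrt1, which fell. The others were not called, and the median of the list was -0.05 with 11 genes above 0 and 17 below. Zfp42, a pluripotency marker also called Rex1, had a difference of 0.31 ± 0.15 (SE, n = 3 per group; limma adjusted p = 0.773). Its intensities were 517, 619 and 435 in the controls and 691, 595 and 642 in the nulls, which overlap at control replicate 2. Sall4, the zinc finger factor that acts beside PRDM1 in germ cells, was at -0.07, Cbfa2t2, the co-repressor bound by PRDM14, at -0.12, and Prmt5, the arginine methyltransferase that pairs with PRDM1, at -0.03. Lin28a, the RNA-binding protein that lets Prdm1 be made by blocking let-7, was at -0.48 ± 0.27 (SE, n = 3 per group; limma adjusted p = 0.774), with the highest value, 533, in control replicate 2. Dppa3, also called Stella, and Ifitm3, early markers of the lineage, were at -0.06 and 0.01.

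Relatives of the members gave no call either. In the AP-2 family Tfap2a was at -0.41 ± 0.45 (SE, n = 3 per group; limma adjusted p = 0.867), and Tfap2b, Tfap2d and Tfap2e lay below the filter, so Tfap2c and Tfap2a were the 2 members measured of 5. Tfap2b was at 53.4 in control replicate 3 and between 4.72 and 6.96 on the other arrays. In the PRDM family 9 of 15 genes were measured, 5 above 0 and 4 below, with differences from -0.26 for Prdm1 to 0.17 for Prdm4. Of the alkaline phosphatases only Alpl passed the filter, and Alppl2, Alpi and Akp3 had intensities from 3.71 to 10.9. Around Nanos3, 5 of the 9 genes of its family and partners were measured, with differences from -0.08 for Pum2, an RNA-binding partner of Nanos proteins, to 0.16 for Cnot8, a deadenylase subunit (limma adjusted p = 0.780). In the Tcl1 family Mtcp1, another AKT coactivator, had intensities of 431, 502 and 484 in the controls and 555, 582 and 681 in the nulls. Mtcp1 was the only 1 of the 4 measured genes of this list without overlap of the groups, beside 13.1% of all genes tested. The Mtcp1 difference was 0.36 ± 0.12 (SE, n = 3 per group; limma adjusted p = 0.773). Akt1 was at 0.14, and Tcl1b1, Tcl1b3 and Tcl1b4 lay below the filter.

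Among 11 orphan nuclear receptors and their relatives, all measured and 0 called, those with the smallest p were Nr5a1 and Nr0b1 rather than Nr6a1. Nr5a1, the steroidogenic factor of the gonadal soma, had a difference of 0.54 ± 0.17, and Nr0b1, its partner DAX1, one of 0.55 ± 0.18 (SE, n = 3 per group; limma adjusted p = 0.773 each). The groups did not overlap at 3 of the 11 genes, beside 13.1% of all genes tested. These were Nr5a1 and Nr0b1, higher in the nulls, and Nr1d2, lower in the nulls with a difference of -0.20 (limma adjusted p = 0.774).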

How the data were processed

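The authors deposited 1 intensity per probe set and array on a linear scale, made with GCRMA per the submitters' processing notes, which name no version. Gonads were kept in RNAlater, and amplification and labelling started from 100 ng of RNA, per the labels' protocols. GCRMA subtracts an estimated background, so folds near the array medians are uncertain. Arrays were grouped by title.

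Intensities were taken to log2 with no constant. Probe sets with a mean of at least 4 were fitted in limma 3.58.1 (R 4.3.3) with 1 term, the group, a trended eBayes and Benjamini-Hochberg adjustment over all 22082. Tests were two-sided. Lists use each gene's brightest tested probe set and carry no test of their own. Genes named by rule were the members, Dmrt1, each list's called genes or the 2 of smallest p, and the 3 profiles closest to Tfap2c and Alpl, the members of largest SD. The Leydig, endothelial, erythroid and mesonephros markers were given as levels of the list, without naming both of those 2 genes. Further examples, among them Bmp4, the ID genes, Sall4 and Tfap2b, were picked with their values in view, and the members and lists with earlier results of these data known. Same-numbered replicates did not deviate together (r = -0.59, -0.34 and 0.14), so the numbers were not used as pairs. The arrays with the same leading number, control replicate 3 and null replicate 2, had r = -0.16. Differently numbered arrays ran from r = -0.40 (control replicate 2, null replicate 3) to 0.58 (control replicate 2, null replicate 1). With 3 arrays per group precision is low, and p-values measure only the spread between these samples.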

Additional observations from a re-analysis of the deposited data

How the results depend on the processing

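The count of member probe sets called was 0 under each alternative run. These were no filter or a stricter one at 6, quantile normalization, centring on the median, adding 16 to the intensities, eBayes untrended or robust, array weights, the replicate block, the brightest probe set or the mean per gene, each array left out, and the added fits with the Leydig level or without the arrays of lowest endothelial level. Limma adjusted p for single members ran from 0.336 to 0.997. With the replicate block, which cannot move a difference in a balanced design, the brightest Tfap2c probe set was at 1.00 with limma adjusted p = 0.961. Tcl1 ran from -0.022 to 0.23 over the fits with 1 array left out. Nr6a1 was at 0.043 without the arrays of lowest endothelial level, and Prdm14 at -0.039 with the Leydig level in the fit. The causes of these changes of sign were not tested. Signals below the array medians, as at 4 Nr6a1 probe sets, allow no reading.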
